A study of Mus musculus with 6 samples.

Results

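The TNF ligands, receptors and adaptors were examined in biliary epithelial cells of the mouse liver, which form the lining of the bile ducts. Members were chosen by gene symbol: Tnf, Lta, Ltb, Ltbr, Fas, Fasl, every symbol beginning with Tnfsf or Tnfrsf, Traf1 to Traf7, Birc2, Birc3, Ripk1 to Ripk4, Cd40, Cd40lg, Eda, Eda2r, Edar and Ngfr. No row had the symbol Cd40lg. The rule found 51 of the 25302 rows of the table. By role these were 13 ligands, 7 receptors with a death domain, 13 other receptors that bind TRAF proteins, 4 decoy or other receptors, 7 TRAF adaptors, 6 kinases or inhibitor of apoptosis proteins, and 1 antisense transcript. The Control group (3 samples) had the genotype Sox9fl/fl. The Sox9cKO group (3 samples) had the genotype Sox9fl/fl:AlbCre+/-, so that both groups carried the floxed Sox9 alleles and differed in the AlbCre transgene. That transgene expresses Cre recombinase from the albumin promoter, which is active in hepatocytes and in the fetal liver cells from which hepatocytes and biliary cells descend. Age, sex, cell isolation and any pooling of mice are not given in the sources used here. Nothing in the labels says whether the samples of a group came from separate mice, so the p-values measure the spread between these samples, which may be partly technical.

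Ligands of the TNF family are mostly trimers on the cell surface that can be shed, and each binds one or a few receptors. Receptors with a cytoplasmic death domain recruit TRADD, FADD and RIPK1 and can lead to caspase activation, while the other receptors recruit TRAF proteins, with the cIAP ubiquitin ligases encoded by Birc2 and Birc3, and activate NF-kB and JNK. In the liver, TNF, lymphotoxin, TRAIL and TWEAK signalling are known for their parts in hepatocyte death, in inflammation of the portal tract and in the ductular reaction, in which biliary cells proliferate.

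The samples held 11883496 to 16191990 reads assigned to genes, and values are given as normalized reads, in which the count of a sample was divided by its size factor. Sox9, the targeted gene, was read at 6043 to 6293 in Control and 3165 to 3363 in Sox9cKO (log2 fold change -0.91, limma adjusted p = 0.00501). Which exons are floxed is not given in the sources used here, so reads of a shortened transcript may be among these. Biliary markers dominated the marker lists: the 12 listed genes summed to 184573 to 233242 in Control and 176602 to 242824 in Sox9cKO, with Krt8, Spp1 and Cdh1 the most abundant on average. RNA of other cell types was also present. The 10 endothelial markers, led by Stab2, Kdr and Eng, summed to 1749 to 37775 in Control and 6263 to 39143 in Sox9cKO, lowest in replicate 3 and highest in replicate 2 of each group. The 12 of 17 leukocyte markers that had a row, led by Cd74, Csf1r and Cd68, summed to 2084 to 2575 in Control and 2885 to 4635 in Sox9cKO, so the groups did not overlap. Most of that sum was Cd74, which was not called (limma adjusted p = 0.499), and Csf1r, the receptor of macrophage colony-stimulating factor, which was called higher in Sox9cKO (log2 fold change 0.92, limma adjusted p = 0.0142). Without this pair, a choice made after the values were seen, the other 10 summed to 296 to 549 in Control and 214 to 269 in Sox9cKO, lower in every Sox9cKO sample. Ptprc, the general leukocyte marker, was read at 19.6 to 37.0 in Control and 1.13 to 16.9 in Sox9cKO, a difference that was not called (limma adjusted p = 0.266). The 10 hepatocyte markers, led by Alb, Apob and Ttr, summed to 21208 to 33348 in Control and 39802 to 69198 in Sox9cKO, without overlap. Apob alone separated them (log2 fold change 2.97, limma adjusted p = 0.00383). Without it, a choice made after the values were seen, the other 9 summed to 18966 to 30036 in Control and 22619.6 to 36633 in Sox9cKO, which overlap, and Alb was not called (limma adjusted p = 0.380). The 11 mesenchymal markers, led by Reln, Col3a1 and Col1a1, summed to 2315 to 3049.8 in Control and 2489 to 5321 in Sox9cKO, which overlap. Reln was the largest part of that sum, at 1653 to 1797 in Control and 1579 to 2799 in Sox9cKO. Col1a1 and Col3a1 were highest in Sox9cKO replicate 1, at 759 and 948. In the other Sox9cKO samples they were at 158 to 197 and 214 to 273.

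The comparison asked how the transcripts of TNF family signalling differed between Sox9cKO and Control biliary cells. Ltb and Tnf, which encode ligands, and Tnfrsf1b, which encodes a TNF receptor, were higher in Sox9cKO, and Tnfrsf19, which encodes an orphan receptor, was lower. In the limma model without a replicate block, none of the TRAF adaptors, kinases, inhibitor of apoptosis genes or death domain receptors was called at an adjusted p below 0.05. Of the 51 members, 42 reached the minimum mean of 10 normalized reads and were tested with limma on log2(value + 1), with Benjamini-Hochberg adjustment over the 17153 tested genes. The 4 called members, 3 higher and 1 lower, were 9.52% of the 42, against 2.97% of all tested genes called (2.03% higher and 0.939% lower). Same-numbered samples of the groups moved together, and with the replicate number as a block in the limma model 7 members were called, 6 higher and 1 lower, the added ones being Tnfsf10, Tnfrsf11a and Traf3. This is 16.7% of the 42, against 8.05% of all tested genes (5.06% higher and 2.99% lower). edgeR, run on the reads recovered from the deposited values, called the same 4 members as limma, against 2.86% of all tested genes (1.82% higher and 1.04% lower). With the block, edgeR called 5 members, against 6.76% (3.87% higher and 2.89% lower). DESeq2 without the block called 6 members, against 7.08% (4.2% higher and 2.87% lower). At an unadjusted p below 0.05, limma gave 8 of the 42, against 17.8% of all tested genes. Groups did not overlap for 9 of the 42 (21.4%), 8 higher and 1 lower, against 24.2% of all tested genes (13.4% higher and 10.8% lower), so this share was no larger than the background. The median log2 fold change was 0.13 for the 42 members and 0.036 for all tested genes. Because Control and Sox9cKO were bulk samples, fewer cells of a type and less RNA per cell cannot be told apart in any of these values.

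Levels of different genes were compared as normalized reads per kilobase of exon. The highest mean level among the tested members was that of Tnfrsf12a, the receptor of TWEAK, at 2002 in Control and 1675 in Sox9cKO. Birc3 followed in Control, at 543 in Control and 588 in Sox9cKO reads per kilobase. Tnf was the ligand with the highest level per kilobase in both groups, at 329 in Control and 809 in Sox9cKO. Ltb stood at 36.8 in Control and 242 in Sox9cKO reads per kilobase and Tnfsf10, which encodes TRAIL, at 86.2 in Control and 252 in Sox9cKO. Ltb was thus level with Tnfsf9 (37.0) in Control and close to Tnfsf10 in Sox9cKO. The lowest level among the tested members was that of Traf1 in Control, at 2.34, and of Ngfr in Sox9cKO, at 2.70. The 9 members that were too low to test had means of 2.33 to 9.91 normalized reads.

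**Figure D1:**
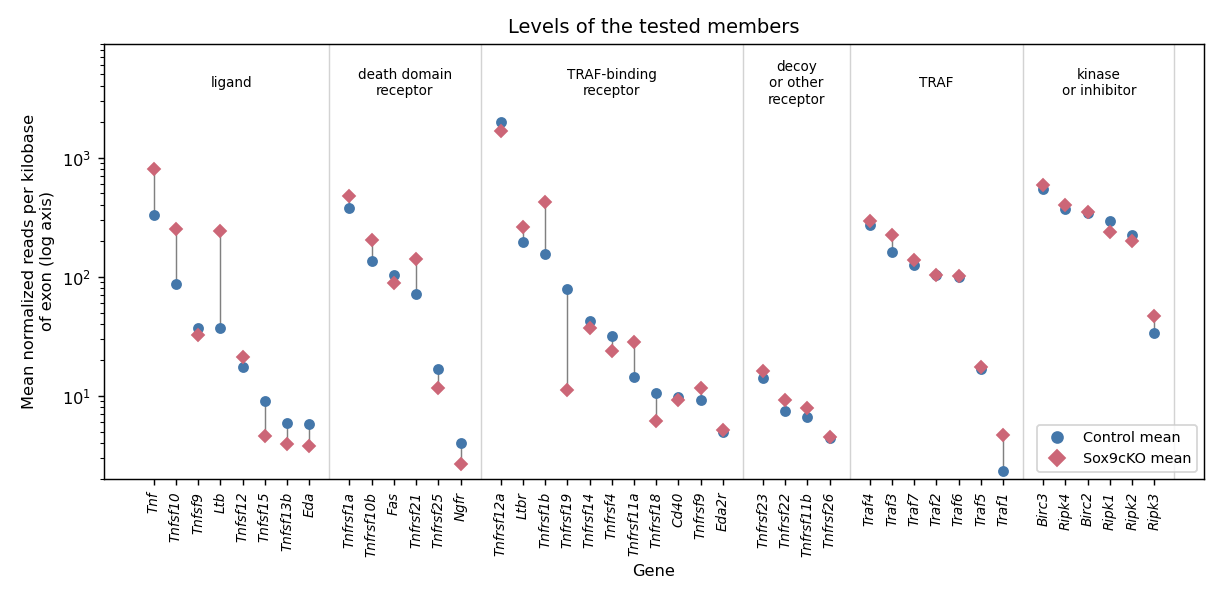
Mean normalized reads per kilobase of exon (log axis) of the 42 tested members, ordered within each role by their level in Control; blue circles are Control means and red diamonds Sox9cKO means of 3 samples. The widest gaps between the symbols are those of Tnfrsf19, which is lower in Sox9cKO, and Ltb, which is higher, while most TRAF adaptors and kinases lie on or near each other.

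Among the ligands, Ltb showed the largest rise. It encodes lymphotoxin beta, the membrane-bound subunit that joins lymphotoxin alpha in the heterotrimer that binds the lymphotoxin beta receptor. Ltb (ENSMUSG00000024399) gave 45.4, 57.5 and 64.5 normalized reads in Control (here and below in the order of replicates 1, 2 and 3) and 393, 460.2 and 249 in Sox9cKO. Every Sox9cKO sample lay above every Control sample, and replicate 3 was the lowest of the Sox9cKO samples. The means were 55.8 ± 9.68 in Control and 367 ± 108 in Sox9cKO (SD, n = 3), which is 6.58-fold. On the log2 scale the difference was 2.67 (standard error 0.27, limma adjusted p = 0.00459), and Ltb was called in each of the 17 alternatives run.

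Tnf, the founding ligand of the family, rose as well. Tnf (ENSMUSG00000024401) was read at 367, 634 and 619 in the Control samples and at 1242, 1555 and 1179.6 in the Sox9cKO samples. The groups did not overlap, and Control replicate 1 was the lowest sample. The means were 540.0 ± 149.7 in Control and 1325 ± 201 in Sox9cKO (SD, n = 3), 2.45-fold higher, with a log2 fold change of 1.33, a standard error of 0.23 and a limma adjusted p of 0.0312. This call was close to the threshold. It was lost without the intensity trend (adjusted p = 0.0708) and in 5 of the 6 fits that left out 1 sample, all but the one without Control replicate 2 (adjusted p up to 0.0950), although the log2 fold change stayed between 1.07 and 1.46. Lta, which encodes the partner of lymphotoxin beta, was read at 5.04, 15.8 and 10.4 in Control and 6.96, 1.89 and 7.92 in Sox9cKO, so the samples overlapped and the gene was too low to be tested. In the RefSeq annotation, Ltb, Tnf and Lta are neighbours on chromosome 17, in that order. Tnf overlaps no other annotated gene. Ltb and Lta overlap Mir6973a and Mir6974 on the same strand. These had no values here, and the exonic bases shared with them were not counted.

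The 250 bases before the annotated start are shown for the 4 called members, because Ltb, Tnf and Tnfrsf1b moved together and Tnfrsf19 moved the other way. They come from RefSeq on GRCm38.p6, an older build than the GRCm39 of the submitters' processing notes, and are written 5′ to 3′ on the strand of the gene. The windows lie at chr17:35194257-35194506 on the plus strand (Ltb), chr17:35202008-35202257 on the minus strand (Tnf), chr4:145246871-145247120 on the minus strand (Tnfrsf1b), and, for the upstream and downstream start of Tnfrsf19, at chr14:61046856-61047105 and chr14:61037988-61038237 on the minus strand. Capitals mark matches to the NF-kB consensus, to the motif ACAATGG, which SOX proteins can bind, or to TATAAA, all searched on both strands.
Ltb: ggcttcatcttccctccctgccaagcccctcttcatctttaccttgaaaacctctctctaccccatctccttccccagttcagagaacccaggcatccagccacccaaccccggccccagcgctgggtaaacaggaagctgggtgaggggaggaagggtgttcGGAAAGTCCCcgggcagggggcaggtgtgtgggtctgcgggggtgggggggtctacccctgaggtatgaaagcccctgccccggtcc
Tnf: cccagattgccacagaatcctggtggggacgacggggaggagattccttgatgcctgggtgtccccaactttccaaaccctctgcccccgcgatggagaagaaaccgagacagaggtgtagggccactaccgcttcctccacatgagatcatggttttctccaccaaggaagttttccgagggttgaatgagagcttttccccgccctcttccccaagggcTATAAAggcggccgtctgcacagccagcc
Tnfrsf1b: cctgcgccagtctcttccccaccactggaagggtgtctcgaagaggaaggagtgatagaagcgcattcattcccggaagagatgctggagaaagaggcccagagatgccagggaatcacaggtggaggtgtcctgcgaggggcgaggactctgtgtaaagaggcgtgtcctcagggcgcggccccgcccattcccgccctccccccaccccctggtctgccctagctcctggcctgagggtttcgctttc
Tnfrsf19 upstream start: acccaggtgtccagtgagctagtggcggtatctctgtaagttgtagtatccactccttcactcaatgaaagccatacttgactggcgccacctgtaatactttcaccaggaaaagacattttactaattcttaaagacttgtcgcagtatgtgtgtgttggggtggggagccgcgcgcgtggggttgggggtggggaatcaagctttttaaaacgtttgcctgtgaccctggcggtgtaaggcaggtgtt
Tnfrsf19 downstream start: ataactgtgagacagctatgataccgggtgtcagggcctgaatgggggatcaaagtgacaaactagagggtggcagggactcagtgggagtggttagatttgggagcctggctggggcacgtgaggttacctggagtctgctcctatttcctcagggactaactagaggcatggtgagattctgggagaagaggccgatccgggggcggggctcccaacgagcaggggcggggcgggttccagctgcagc
Ltb had 1 match to the NF-kB consensus, on the opposite strand, 87 to 78 bases before its start. Tnf had 1 TATAAA on its own strand, 29 to 24 bases before its start. The other windows shown held no match. Promoters were found for 41 members with 47 windows, of which 3 (6.38%) held the NF-kB consensus, 4 (8.51%) held TATAAA and 0 held ACAATGG. Among all 32851 windows of the same length the shares were 3.90%, 12.4% and 3.02%. The matches describe these letters, and no match says only that the letters are not in this window.

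Tnfsf10, the gene of the death-inducing ligand TRAIL, had a difference no smaller than that of Tnf but a wider spread. Tnfsf10 (ENSMUSG00000039304) was read at 400.1, 590.3 and 371 in the Control samples and at 922, 2049.8 and 1002 in the Sox9cKO samples. The groups did not overlap, and replicate 2 was the highest sample of each group, far above the others in Sox9cKO. The log2 fold change of 1.48 (standard error 0.33) was not called (limma adjusted p = 0.0666). Within replicates 1 to 3 the log2 differences were 1.20, 1.79 and 1.43, and with the replicate block the gene was called (limma adjusted p = 0.00252).

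The remaining ligands were low and none of those tested was called, against 2.97% of all tested genes (limma). The 5 other tested ligands, Tnfsf9, Tnfsf13b, Eda, Tnfsf12 and Tnfsf15, had means between 22.7 and 44.7 over the 6 samples. Their log2 fold changes ran from -1.17 to 0.22. Tnfsf15, which encodes the ligand of the receptor Tnfrsf25, was read at 26.9, 25.1 and 38.0 in Control and 29.8, 9.45 and 6.79 in Sox9cKO. Replicate 1 of Sox9cKO lay inside the Control range, and the adjusted p was 0.323 (limma). Tnfsf12, which encodes TWEAK, was read at 19.6 to 31.1 in Control and 23.8 to 47.3 in Sox9cKO. It shares exons with Tnfsfm13, an annotated gene that spans Tnfsf12 and Tnfsf13, so reads of these 3 genes may have been divided among them. Tnfsf9 shares exonic bases with Gm11110 on the opposite strand. The ligands below the minimum were Tnfsf13, Lta, Tnfsfm13, Tnfsf14 and Fasl, with Fasl at 2.30 to 5.57 in Control and 0.945 to 2.26 in Sox9cKO. The antisense transcript Tnfsf13os was also below it, at 5.04, 7.42 and 13.8 in Control and 7.96, 1.89 and 10.2 in Sox9cKO.

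**Figure D2:**
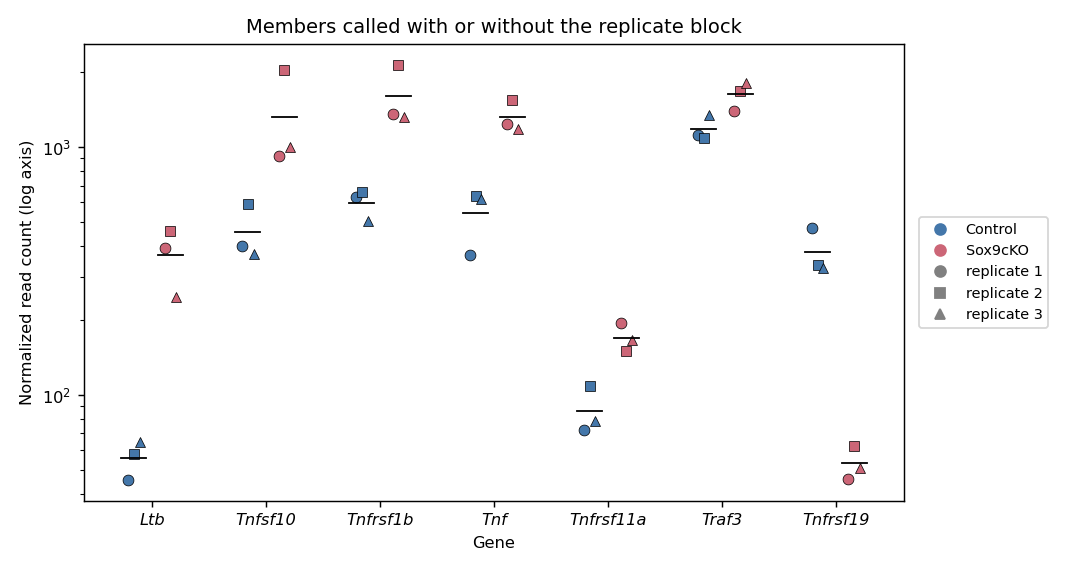
Normalized read counts (log axis) in each sample of the 7 members called with or without the replicate block; blue symbols are Control and red symbols Sox9cKO samples, circles, squares and triangles are replicates 1, 2 and 3, and black lines are group means. In each of the 7 genes the 3 Sox9cKO samples lie on one side of the 3 Control samples, below them for Tnfrsf19 and above them for the others.

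With limma none of the 6 tested death domain receptors was called, against 2.97% of all tested genes, or 8.05% with the replicate block. At an unadjusted p below 0.05, limma gave 1 of them, Tnfrsf10b, against 17.8% of all tested genes. Without the block edgeR and DESeq2 called 0, against 2.86% and 7.08% of all tested genes. Counts this small do not set these receptors apart from all tested genes. Tnfrsf1a, the widely expressed receptor of TNF, was read at 925, 1287 and 696 in Control and 1431, 1347 and 937 in Sox9cKO. The samples overlapped, and the 95% confidence interval of the log2 fold change was -0.23 to 0.98 (limma adjusted p = 0.510). Tnfrsf10b, the receptor through which mouse TRAIL signals death, was read at 581, 976 and 652 in Control and 1399, 1075 and 859 in Sox9cKO. Control replicate 2 lay above Sox9cKO replicate 3, and the log2 fold change of 0.60 was not called (interval 0.02 to 1.18, limma adjusted p = 0.264). Tnfrsf21, also known as DR6, was read at 347, 248 and 290.3 in Control and 871, 296 and 565 in Sox9cKO. Sox9cKO replicate 2 lay inside the Control range while the other two lay above it (log2 fold change 0.85, limma adjusted p = 0.293). Fas, which triggers caspase activation on binding Fas ligand, was read at 131 to 335 in Control and 123 to 240.0 in Sox9cKO. Tnfrsf25 and Ngfr had log2 fold changes of -0.58 and -0.57, neither called (limma adjusted p = 0.533 and 0.613). Edar, the ectodysplasin receptor, gave at most 6.72 normalized reads and was not tested.

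Among the receptors that bind TRAF proteins without a death domain, Tnfrsf1b rose and Tnfrsf19 fell. Tnfrsf1b (ENSMUSG00000028599) encodes the other receptor of TNF, which responds best to the membrane-bound ligand. It was read at 630.4, 658 and 505 in the Control samples and at 1356, 2149 and 1328 in the Sox9cKO samples. The groups did not overlap, and replicate 2 was the highest Sox9cKO sample. The means were 598 ± 81.8 in Control and 1611 ± 466 in Sox9cKO (SD, n = 3), 2.70-fold higher, with a log2 fold change of 1.40 and a standard error of 0.21 (limma adjusted p = 0.0185). The call was lost without Control replicate 1 (adjusted p = 0.0792) and without Control replicate 3 (adjusted p = 0.0740), at log2 fold changes of 1.44 and 1.28. On the scale of reads per kilobase, Tnfrsf1b was below Tnfrsf1a in Control (157 against 374) and close to it in Sox9cKO (422 against 478).

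Tnfrsf19 (ENSMUSG00000060548), also called TROY, is an orphan receptor that has been linked to Wnt signalling. It was read at 471, 335 and 325 in the Control samples and at 45.8, 62.4 and 50.9 in the Sox9cKO samples. The Sox9cKO samples lay close together and far below every Control sample. The means were 377 ± 81.4 in Control and 53.0 ± 8.50 in Sox9cKO (SD, n = 3), 7.11-fold lower in Sox9cKO. On the log2 scale the difference was -2.80 (standard error 0.22, limma adjusted p = 0.00246). Each of the 17 alternatives called it, at values from -2.92 to -2.63. Tnfrsf19 overlaps Gm41168, an annotated gene on the opposite strand that had no values here, and the exonic bases shared with it were not counted.

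Tnfrsf11a, which encodes RANK, was read at 72.3, 109 and 78.3 in Control and 195, 150.3 and 166 in Sox9cKO. The groups did not overlap, and the means were 86.4 ± 19.4 in Control and 171 ± 22.7 in Sox9cKO (SD, n = 3). The log2 fold change of 0.99 (standard error 0.22) was not called (limma adjusted p = 0.0652) but was called with the replicate block (limma adjusted p = 0.0461). Ltbr, the receptor of the lymphotoxin beta heterotrimer, was read at 467, 482 and 444 in Control and 751, 569 and 516 in Sox9cKO. All Sox9cKO samples lay above the Control samples, replicate 3 by the least, and the log2 fold change of 0.38 was not called (interval -0.0029 to 0.76, limma adjusted p = 0.285). Tnfrsf12a, the TWEAK receptor and the most abundant receptor here, was read at 3918, 3309 and 4376 in Control and 3501, 3018 and 3190.2 in Sox9cKO. The samples overlapped, and the interval of the log2 fold change was -0.57 to 0.07 (limma adjusted p = 0.393). The other 6 tested receptors of this kind were Tnfrsf14, Tnfrsf4, Cd40, Eda2r, Tnfrsf9 and Tnfrsf18, with means of 12.7 to 57.2 over the 6 samples. Many of them are known from lymphocytes, and none was called (limma adjusted p between 0.498 and 0.828), against 2.97% of all tested genes. Tnfrsf18, which shares exonic bases with Gm16008 on the opposite strand, and the death domain receptor Ngfr passed the minimum only through their Control samples. Tnfrsf13b and Tnfrsf13c, receptors of B cells, reached at most 5.88 normalized reads and were not tested.

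The decoy and other receptors were low and variable. Tnfrsf23 and Tnfrsf22, mouse decoy receptors of TRAIL, lie in a cluster with Tnfrsf26, and the 3 are related in sequence, so reads may have been divided among them. Tnfrsf23 and Tnfrsf26 also share exonic bases with E230032D23Rik on the opposite strand. Tnfrsf23 was read at 37.0, 64.0 and 66.8 in Control and 92.5, 51.0 and 48.7 in Sox9cKO. Tnfrsf22 was read at 18.5, 59.4 and 16.1 in Control and 47.8, 51.0 and 18.1 in Sox9cKO. Tnfrsf11b, which encodes osteoprotegerin, the soluble decoy of the RANK ligand, was read at 23.5, 18.6 and 13.8 in Control and 39.8, 20.8 and 5.66 in Sox9cKO. The groups overlapped in all 4 genes, and none was called (limma adjusted p of at least 0.771). Of all tested genes, 24.2% had groups that did not overlap and 2.97% were called.

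None of the 7 TRAF adaptors was called without the replicate block, against 2.97% of all tested genes (limma). With the block 1 of them (14.3%), Traf3, was called, against 8.05% of all tested genes. Counts this small do not set the TRAF adaptors apart from all tested genes. Traf3, which holds the kinase NIK low in unstimulated cells and so restrains non-canonical NF-kB signalling, was read at 1119.7, 1093 and 1345 in Control and 1399.8, 1684 and 1814 in Sox9cKO. The lowest Sox9cKO sample lay just above the highest Control sample. The log2 fold change of 0.46 (standard error 0.14) was not called (limma adjusted p = 0.158), and with the replicate block it passed by a small margin (limma adjusted p = 0.0487). Traf4 was read at 952, 835 and 893 in Control and 1025, 899 and 988 in Sox9cKO, with an interval of the log2 fold change of -0.15 to 0.39. Traf6, which also serves the interleukin and Toll-like receptors, was read at 689, 769 and 899.8 in Control and 769, 819 and 813 in Sox9cKO, with an interval of -0.28 to 0.34. Traf2, the adaptor of both TNF receptors, had an interval of -0.31 to 0.26. Traf7, which shares exonic bases with Caskin1 and Rab26, ran from 702 to 765 in Control and from 769.8 to 845 in Sox9cKO without overlap, and was not called (limma adjusted p = 0.539). Traf5 was not called either (limma adjusted p = 0.905). Traf1, the least abundant, was read at 11.8, 30.6 and 19.6 in Control and 53.7, 52.9 and 18.1 in Sox9cKO. Its Sox9cKO replicates 1 and 2 were the highest samples, but replicate 3 lay within the Control range (log2 fold change 0.92, limma adjusted p = 0.424).

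Most genes of the kinases and inhibitors downstream were abundant, and none was called, against 2.97% of all tested genes (limma). Birc3, which encodes cIAP2 and is itself a known NF-kB target, was read at 2072, 3686 and 2406 in Control and 2437, 3739.5 and 2664 in Sox9cKO. Replicate 2 was the highest in both groups, at nearly the same level, and the interval of the log2 fold change was -0.45 to 0.72 (limma adjusted p = 0.832). Birc2, which encodes cIAP1, was read at 1413, 1899.9 and 1416 in Control and 1271, 1948 and 1589 in Sox9cKO, with an interval of -0.44 to 0.47. Ripk1, the kinase at the branch between survival and death signalling, was read at 2397, 2807 and 2128 in Control and 2090.3, 2261 and 1591 in Sox9cKO, with an interval of -0.71 to 0.09 (limma adjusted p = 0.403). Ripk1 shares exonic bases with Serpinb6a on the opposite strand, and whether counting used the strand is not stated. Ripk3, the kinase of necroptosis, was read at 40.3, 114 and 77.2 in Control and 156, 98.3 and 67.9 in Sox9cKO (limma adjusted p = 0.613). Ripk2 and Ripk4 had log2 fold changes of -0.19 and 0.12 (limma adjusted p = 0.708 and 0.755).

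**Figure D3:**
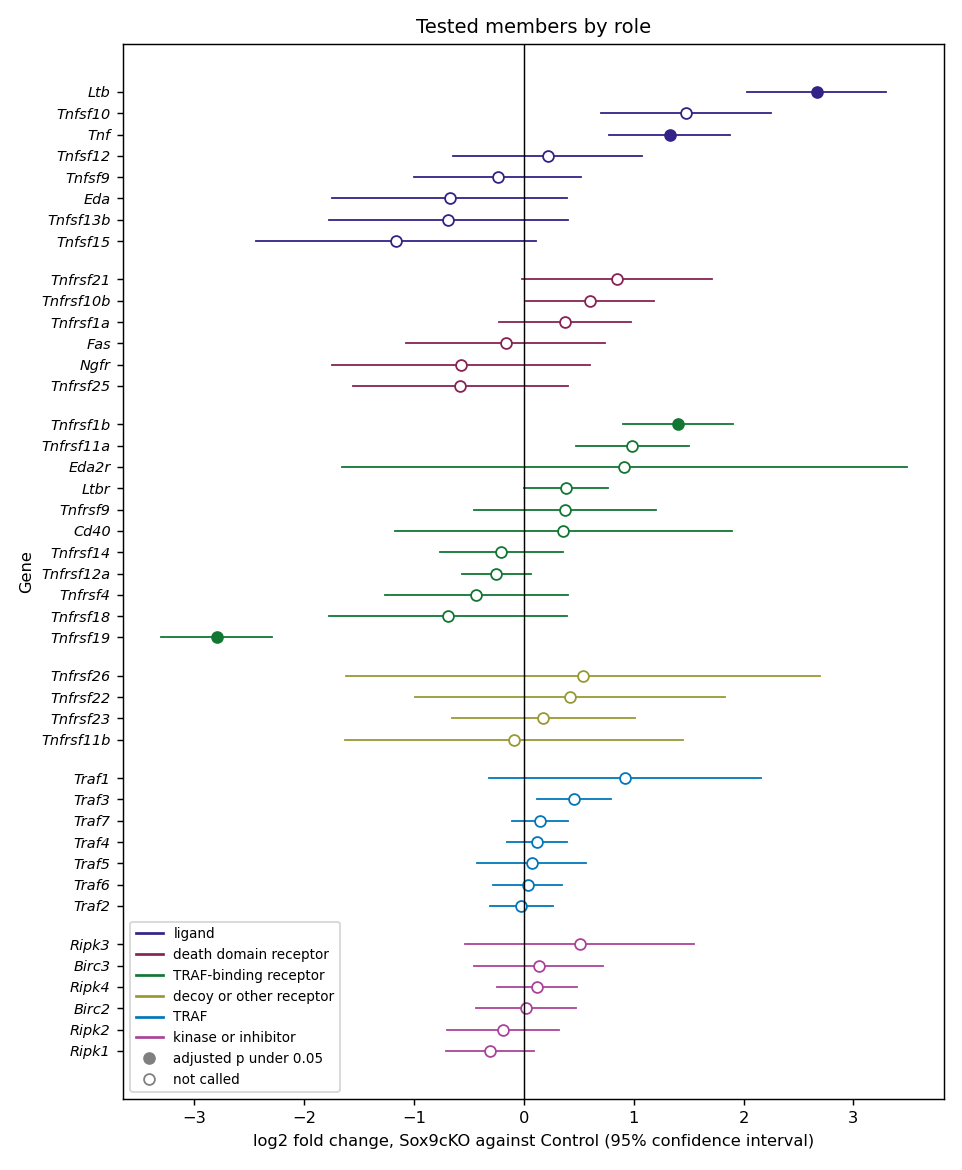
Log2 fold change of Sox9cKO against Control (horizontal axis) for the 42 tested members, grouped and coloured by role; lines are 95% confidence intervals from limma, and filled circles mark an adjusted p below 0.05. The filled circles are Ltb, Tnf, Tnfrsf1b and Tnfrsf19. The intervals of the abundant TRAF and kinase genes mostly include 0 but differ in width. That of Traf4 runs from -0.15 to 0.39 and that of Birc3 from -0.45 to 0.72.

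Other genes of TNF receptor signalling were taken from 3 lists of 37 genes in all, each tested. With limma none was called, against 2.97% of all tested genes, and edgeR called 0 as well. At an unadjusted p below 0.05, limma gave 15 of the 37 (40.5%), against 17.8% of all tested genes. The lists were chosen with earlier results of these data known, so this share and the medians below describe the listed genes only. Among the 10 death signalling genes the median log2 fold change was 0.32, with 9 of them above 0, and among the 5 genes for shedding it was 0.29. For the 22 genes of the ubiquitin and kinase relay it was 0.055, beside 0.036 for all tested genes. With the replicate block 4 of the 37 genes (10.8%) were called, all higher, against 8.05% of all tested genes called with the block (5.06% higher). These were Adam10, a sheddase, from 1488 ± 67.3 to 2139.7 ± 197 (limma adjusted p = 0.0631, or 0.0244 with the block), and Map4k4, a kinase upstream of JNK, from 5227 ± 802 to 8573 ± 2714 (0.183, or 0.0190). The other two were Mlkl, the effector of necroptosis, from 261 ± 64.4 to 388 ± 77.9 (limma adjusted p = 0.230, or 0.0387 with the block), and Bid, which links death receptors to mitochondria, from 146 ± 34.5 to 239 ± 49.2 (0.186, or 0.0438). Means are normalized reads ± SD of 3 samples.

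Several members had the sample order of the endothelial markers. In the order of replicates, the sums of these markers were 12017, 37775 and 1749 in Control and 30085, 39143 and 6263 in Sox9cKO. Eda2r, a receptor of ectodysplasin, was read at 10.9, 74.2 and 2.30 in Control and 26.9, 52.0 and 12.5 in Sox9cKO. Tnfrsf26 was read at 5.88, 34.3 and 2.30 in Control and 13.9, 23.6 and 5.66 in Sox9cKO. Cd40, a receptor best known from antigen-presenting cells, was read at 17.7, 71.5 and 10.4 in Control and 32.8, 35.9 and 24.9 in Sox9cKO. Each of the 3 was highest in Control replicate 2 and lowest in Control replicate 3. The order of samples within both groups was that of the endothelial sum for 7 of the 42 members (16.7%), against 8.12% of all tested genes, a description chosen after the values were seen. These were Eda2r, Tnfrsf26, Cd40, Tnfrsf22, Fas, Ripk1 and the called gene Tnfrsf1b. They shared the order but not the spread. In the same sequence, the highest Control sample was 32.2, 14.9, 6.89, 3.68, 2.55, 1.32 and 1.30 times the lowest. The part of endothelial RNA in these values was not tested.

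In replicate 2 the endothelial sums of the groups were close to each other, at 37775 in Control and 39143 in Sox9cKO. There the log2 differences between the groups were 2.98 for Ltb, 1.29 for Tnf, 1.71 for Tnfrsf1b, 1.79 for Tnfsf10 and -2.41 for Tnfrsf19. In the same pair Eda2r, Tnfrsf26 and Cd40 differed by -0.51, -0.52 and -0.97, all lower in Sox9cKO. Control replicate 3 had the lowest endothelial sum and held Tnf at 619, near the 634 of Control replicate 2. Control replicate 1, with an endothelial sum of 12017, held Tnf at 367. Tnfrsf1b, also called, was read at 630.4, 658 and 505 in Control replicates 1, 2 and 3. In replicates 1 and 3 the endothelial sums were higher in Sox9cKO, at 30085 against 12017 and 6263 against 1749. The part of endothelial RNA in the called genes was not tested. Leukocytes are a known source of Tnf and Ltb. The sum of all 12 leukocyte markers was higher in every Sox9cKO sample (2885 to 4635) than in any Control sample (2084 to 2575), as were Csf1r, Tnf and Ltb, while the sum without Cd74 and Csf1r was lower. The part of leukocyte RNA in the called genes was not tested.

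**Figure D4:**
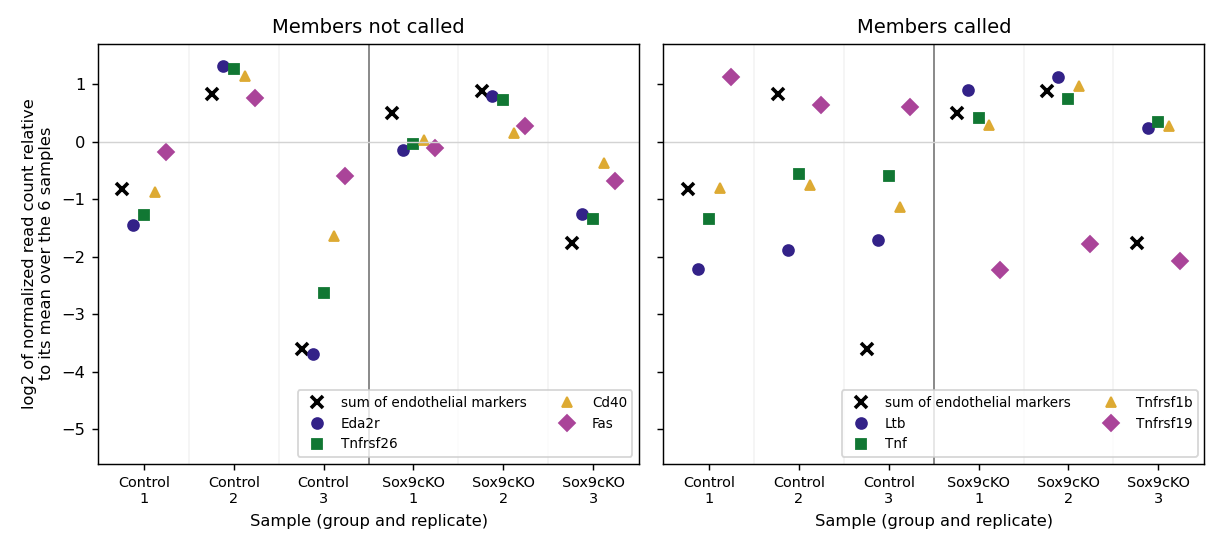
Log2 of the normalized read count relative to its mean over the 6 samples (vertical axis), by sample, for the sum of 10 endothelial markers (black crosses) and, on the left, 4 members that were not called or, on the right, the 4 called members. Eda2r and Tnfrsf26 lie near the crosses in most samples. The members on the left were chosen from those whose sample order within both groups was that of the crosses. The members on the right were called because they separate the groups, so the contrast between the panels follows from these choices.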

How the data were processed

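RNA of 3 Control and 3 Sox9cKO samples of biliary epithelial cells was sequenced as total RNA after ribosomal RNA depletion, with molecular identifiers, per the labels. The deposited values are a signal, gene counts divided by 1 size factor per sample, as the values themselves show: in each sample 100% were whole multiples of what 1 read is worth (tolerance 0.001 reads). DESeq2 1.36.0 and GRCm39 are named in the submitters' processing notes. The aligner, the counting program, the use of strand and the use of the molecular identifiers are not given in the sources used here, so reads may include PCR copies.

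Values were tested as log2(value + 1) with limma 3.58.1 in R 4.3.3 (intensity trend, genes with a mean of at least 10, Benjamini-Hochberg over all 17153 tested genes, threshold 0.05, two-sided). The pseudocount of 1 understates the fold of low genes. The members and lists were chosen with earlier results of these data known. Values per sample are given for members called with or without the replicate block and for the 3 most abundant of each role; other members given per sample were chosen after their values were seen. No gene of the pathway lists was called, and the 4 called with the block are named. Of each marker list the 3 most abundant genes are named. Same-numbered samples deviated together (correlations across genes of 0.207 to 0.542, against -0.437 to 0.0476 for other pairings), which is the source of the pairing. Deviations were taken from the mean of each group, so positive values for same-numbered samples push those of other pairings down. The contrast is thus partly built in, and the pairing comes from the same data that the block was used on. The 17 alternatives included edgeR 4.0.16 and DESeq2 1.42.0 on the recovered reads and 6 fits that left out 1 sample. Exon lengths, matched by gene ID for all 51 members, came from GENCODE M21 on GRCm38, another build than the one named, so gene coordinates are not given. Scripts were tested on simulated data.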

Additional observations from a re-analysis of the deposited data

How the results depend on the processing

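Tnfrsf19 and Ltb kept their direction and their call in all 17 alternatives, Tnfrsf1b in 15 and Tnf in 11. The count of 4 called members was 7 with the replicate block and ranged from 2 to 4 when 1 sample was left out, with 2 left, Ltb and Tnfrsf19, without Control replicate 1 or Control replicate 3. The number higher, 3, was 6 with the replicate block and 5 with DESeq2, which added Tnfsf10 and Tnfrsf11a, and ranged from 1 to 3 when 1 sample was left out. The number lower was 1 throughout. edgeR with the replicate block added Tnfsf10. Of the pathway lists, 4 genes were called with the replicate block, 2 with edgeR and the replicate block (Adam10 and Map4k4), 1 with DESeq2 (Adam10), and 0 in every fit that left out 1 sample. Over all genes, 510 were called, against 1381 with the replicate block, 1160 with edgeR and the replicate block, 1214 with DESeq2, and 199 to 387 when 1 sample was left out. The replicate block changed no other call among the members. Fits that left out 1 sample had fewer samples; the cause of the other differences was not tested.

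Of the 42 tested members, 13 took the other sign in at least 1 alternative, and none of these was called in any fit. Of the 20 whose values were given by the naming rule, these were 5, listed next, and of the other 22 they were 8: Cd40, Eda2r, Fas, Ripk2, Tnfrsf26, Tnfsf12, Traf2 and Traf5. Tnfrsf11b, at -0.088, was 0.058 with quantile normalization, 0.19 with edgeR, 0.038 with edgeR and the replicate block, 0.20 with DESeq2, 0.087 without Control replicate 1 and 0.63 without Sox9cKO replicate 3 (-0.675 to 0.63 when 1 sample was left out). Traf6, at 0.034, was -0.081, -0.019, -0.010 and -0.011 under the same first 4 alternatives and -0.056 without Control replicate 1 (up to 0.14 without another sample). Birc2, at 0.017, was -0.085, -0.021, -0.028 and -0.014 under them, and -0.13 to 0.17 when 1 sample was left out, negative without Control replicate 1 (-0.055), Control replicate 3 (-0.053) and Sox9cKO replicate 2 (-0.13). Birc3 was -0.040 without Control replicate 1 and -0.051 without Sox9cKO replicate 2 (up to 0.37 without another sample). Tnfrsf23 was -0.092 without Control replicate 1 and -0.12 without Sox9cKO replicate 1 (up to 0.34 without another sample). At the minimum mean of 50, members with lower means, such as Tnfrsf22 and Tnfrsf11b, gave no value. Depth limits the 9 untested members, which reached at most 15.8 normalized reads in any sample.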

Other observations

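Nfkb2 and Relb, which encode the subunits of the non-canonical NF-kB dimer that the lymphotoxin beta receptor activates, are not members and were chosen after the results for Ltb were seen. In the order of replicates, Nfkb2 gave 4415, 4410.4 and 5271 normalized reads in Control and 4206, 3812 and 3672 in Sox9cKO. All Sox9cKO samples lay below the Control samples, and the log2 fold change of -0.27 was not called (limma adjusted p = 0.307). Relb was read at 1545, 1672 and 1849 in Control and 2028, 2093 and 1767 in Sox9cKO, where the groups overlapped (log2 fold change 0.22, limma adjusted p = 0.415).

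The NF-kB consensus was also found in the RefSeq window of Traf3, 10 to 1 bases before its start, and in 1 of the windows of Tnfrsf9, within 43 to 33 bases before its start. Traf3 was higher in every Sox9cKO sample than in any Control sample, and Tnfrsf9, which encodes an activation receptor of T cells, was read at 19.3, 38.1 and 18.4 in Control and 27.9, 31.2 and 35.1 in Sox9cKO, where the groups overlapped.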
